A study of Mus musculus with 12 samples.

Results

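Transcripts of 30 mouse genes were followed in 12 pancreatic neuroendocrine tumors (PanNETs). They encode enzymes and carriers of the tricarboxylic acid (TCA) cycle and of its refilling from pyruvate and amino acids (anaplerosis). The list also covers the export of citrate and of dicarboxylates from mitochondria. The genes were taken by their symbols from the 38924 gene identifiers counted in each tumor, and all 30 were found. All tumors came from RIP1Tag2 mice on the C57Bl6 background, in which beta cells of the pancreas express a viral oncogene under an insulin promoter, and were labelled as islet tumor or insulinoma. Treatment had started at 15.5 weeks of age and lasted 4 days in every group. There were 4 control tumors from mice given saline (tumors 1, 2, 3 and 4), 4 tumors from mice given sunitinib, which blocks receptors for VEGF and PDGF, as monotherapy (tumors 5, 6, 8 and 12), and 4 from mice given rapamycin, an mTOR inhibitor, in combination with sunitinib (R+S, tumors 4, 5, 7 and 10). No group received rapamycin alone among the samples analysed, so the R+S group can be set against sunitinib to ask what the addition of rapamycin went with, and both treated groups against control.

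The TCA cycle oxidizes acetyl-CoA inside mitochondria and passes the electrons to the respiratory chain, and it also supplies carbon skeletons for lipid, glucose and amino acid synthesis. Pyruvate enters either as acetyl-CoA through the pyruvate dehydrogenase complex or as oxaloacetate through pyruvate carboxylase. Beta cells are known for high pyruvate carboxylase activity and for cycling pyruvate through malate and citrate, which links glucose use to insulin secretion.

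Reads counted on genes numbered 31872342 to 44215054 per tumor (median 38526164). Values below are these counts divided by the library size after TMM normalization (normalized CPM), and each list of values for a gene follows the order of the tumor numbers given above. Sunitinib-treated tumor 6 stood apart, with correlations to the other sunitinib-treated tumors of 0.872 to 0.895 against 0.957 to 0.978 among those 3. Its summed CPM of 8 beta-cell markers was 1841 against 30794 to 76245 in the other 11 tumors, and its summed CPM of 5 hepatocyte markers was 6764 against 29.3 to 257. Most of that hepatocyte sum was Ttr at 6357 CPM, with Alb at 272, Serpina1a at 131, Apoa1 at 4.17 and Fgb at 0.746. Each of these 5 was highest in tumor 6. Markers of acinar cells also separated the groups, since the summed CPM of 14 acinar genes was 41.1 to 109 in control, 8571 to 30999 in sunitinib-treated and 2136 to 13327 in R+S-treated tumors. The summed CPM of 7 endothelial markers was 432 to 591 in control, 44 to 77.5 in sunitinib-treated and 93.1 to 118 in R+S-treated tumors. These are bulk tumors, so that fewer cells of a type and less RNA per cell cannot be told apart. The labels carry a prefix shared by all 4 control tumors, by 3 sunitinib-treated and by 2 R+S-treated tumors, and each prefix is confined to its group. Treatment therefore cannot be told apart from prefix. Tumors with a common prefix would not be independent if it named a mouse, which the labels do not say.

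Levels of different genes were compared as CPM per kilobase of merged exons. In control tumors Acly, which splits exported citrate into acetyl-CoA and oxaloacetate in the cytosol, had the highest level of the 30, at 778 ± 48.3 CPM per kilobase (SD, n = 4), rank 18 of the 16469 tested genes with a length. The cytosolic malate dehydrogenase Mdh1 followed at 105 ± 9.79 and its mitochondrial counterpart Mdh2 at 68.7 ± 9.86, and the ranges of each of these 3 genes in control tumors were separate. From the oxoglutarate-malate carrier Slc25a11 (57 ± 3.39) through Idh2, Ogdh and Pcx (50.6 ± 4.13) to Idh3g (49.6 ± 3.64), neighbors in the order had overlapping ranges, as 22 of the 29 neighboring pairs did. At the lower end Pdhx, the subunit that anchors dihydrolipoamide dehydrogenase in the pyruvate dehydrogenase complex, was at 5.13 ± 0.436. Below it lay a gap to the mitochondrial malic enzyme Me3 (0.063 ± 0.0277) and to Pck1, the cytosolic phosphoenolpyruvate carboxykinase of glucose-producing tissues (0.0137 ± 0.0119). Pck1 had 0 to 10 reads in each of the 12 tumors, did not pass the filter on low counts and was not tested, which left 29 of the 30 genes.

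**Figure D1:**
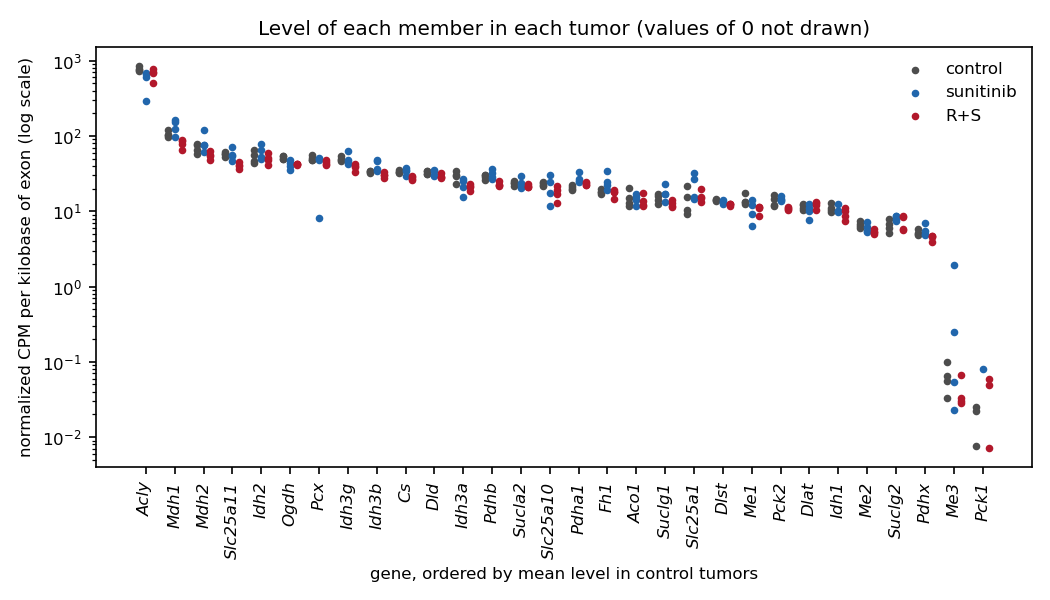
Level of each of the 30 genes in each tumor, as normalized CPM per kilobase of merged exon on a log axis, ordered by the mean of the control tumors; each dot is 1 tumor and values of 0 are not drawn. Acly stands highest at 734 to 846 in control tumors, most genes lie between 5 and 105, and Me3 and Pck1 lie far below the rest apart from Me3 in sunitinib-treated tumor 6.

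Against control, none of the 29 tested genes passed an adjusted p of 0.05 by edgeR in either treated group. In sunitinib-treated tumors 15 had a positive and 14 a negative log2 fold change, with a median of 0.01 beside 0.03 over all 16645 genes tested. By edgeR 0 genes of the list were called, where 1.93% of all genes were called higher and 2.55% lower, and 4 higher and 2 lower passed an unadjusted p of 0.05 (background 11.3% higher and 8.2% lower). DESeq2 called 3 of the 29, or 10.3%, beside 8.87% of all genes. All 4 sunitinib-treated tumors were above all controls for 1 gene (background 5.17%) and below them for 2 (background 5.76%). Without sunitinib-treated tumor 6, 11 genes were negative, and the ranges were separate for 1 gene upward (background 7.65%) and 3 downward (background 8.52%).

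In R+S-treated tumors the list lay lower. The log2 fold change against control was negative for 25 of 29 genes, 86.2% beside 49% of all genes, with a median of -0.23 beside 0.01. EdgeR called 0 of them, where it called 1.55% of all genes higher and 2.61% lower, while 10 genes, all lower, or 34.5%, passed an unadjusted p of 0.05 (background 10.9% lower). DESeq2 called 4, or 13.8%, beside 10.1% of all genes. The 4 R+S-treated tumors were below all controls for 11 genes, or 37.9% (background 11.9%), and above all controls for 0 (background 11.6%).

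Against sunitinib alone, R+S-treated tumors had a negative log2 fold change for 24 of 29 genes, 82.8% beside 51.8% of all genes, with a median of -0.24 beside -0.03. Here 3 genes were called lower and 0 higher by edgeR (background 4.58% lower and 2.63% higher), and 13, all lower, or 44.8%, passed an unadjusted p of 0.05 (background 17.6% lower). The called genes were Pdhb, Idh3b and Mdh1. All R+S-treated tumors lay below all sunitinib-treated tumors for 8 genes, or 27.6% (background 9.73%), and above them for 0 (background 8.9%). The comparisons share tumors, so these counts are not independent of each other. Without sunitinib-treated tumor 6 the negative genes numbered 27 of 29 and the genes with separate ranges 9 (31%, background 13.8%). In that fit 4 genes of the list were called, and the share called over all genes is not given here.

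**Figure D2:**
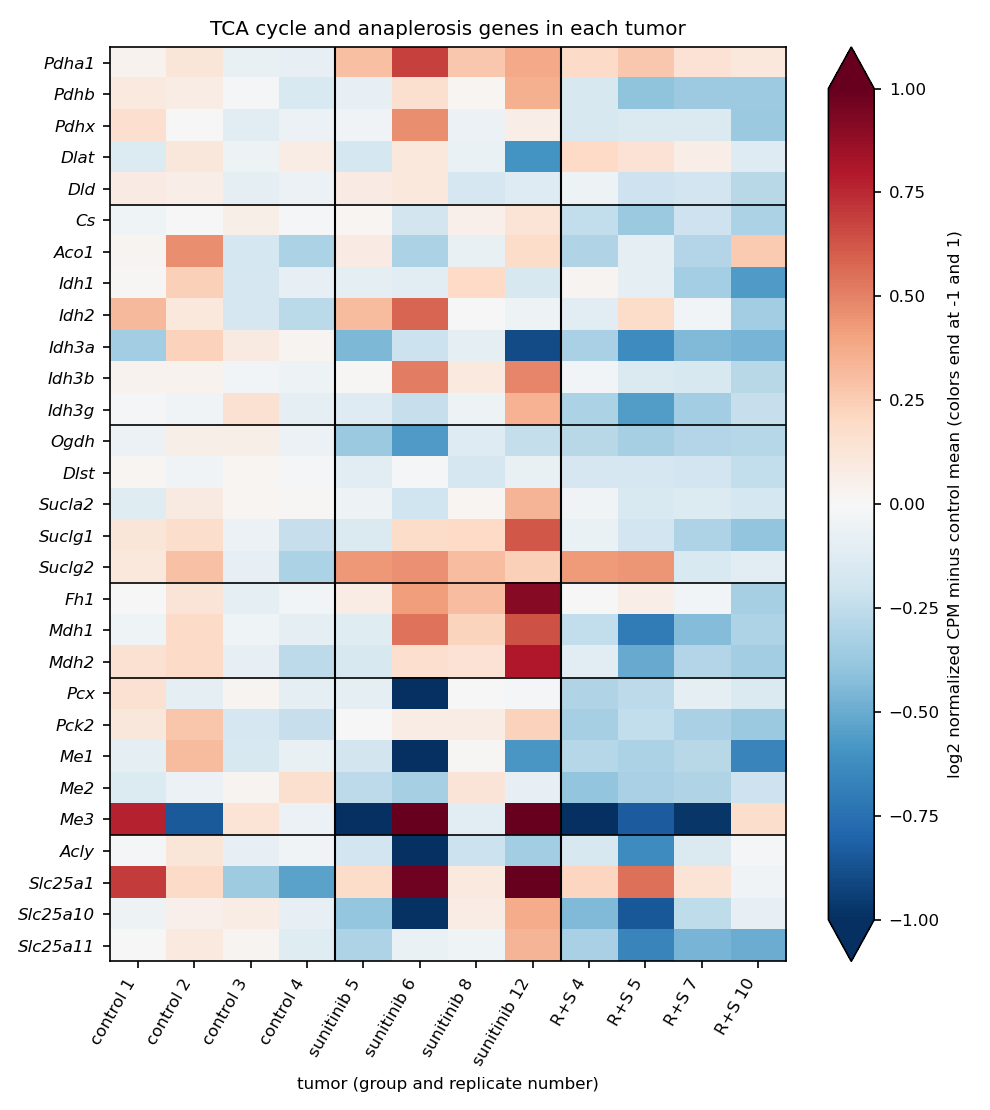
Log2 normalized CPM of the 29 tested genes in the 12 tumors, minus the mean of the 4 control tumors for each gene (red higher, blue lower, colors saturate at -1 and 1); horizontal lines part the steps of the pathway and vertical lines the groups. The R+S columns are mostly blue, the sunitinib columns are mixed, and sunitinib-treated tumor 6 is dark blue for Pcx, Acly, Me1 and Slc25a10.

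The mean over the 29 genes of log2 CPM, taken relative to the control mean, was between -0.11 and 0.09 in control tumors, between -0.11 and 0.23 in sunitinib-treated tumors and between -0.24 and -0.16 in R+S-treated tumors. Summed over the list without Acly, the CPM was 2865 to 3295 in control, 2879 to 3618 in sunitinib-treated and 2508 to 2705 in R+S-treated tumors. Both measures placed the 4 R+S-treated tumors below the 8 others. With Acly the sum was 6877 to 7763 in control, 4596 to 6845 in sunitinib-treated and 5155 to 6610 in R+S-treated tumors, so that both treated groups were below control and overlapped each other. These sums and means are descriptions without a test. Of the uniquely aligned reads, 13.6 to 18.7% were assigned to no gene in control tumors. This share was 11.1 to 16.8% in sunitinib-treated and 16.8 to 18.8% in R+S-treated tumors. In each group the tumor with the lowest share had the highest mean over the 29 genes (control tumor 2, sunitinib-treated tumor 12 and R+S-treated tumor 4). The part of this share in the values of the list was not tested. The acinar sums given above were higher than control in both treated groups. With the mean log2 CPM of the acinar genes as a covariate, the median of the list against control moved from -0.23 to -0.06 in R+S-treated tumors and the negative genes from 25 to 18, whereas against sunitinib the median was -0.26 and 26 genes were negative. Acinar RNA and treatment cannot be told apart in the comparisons with control, where the acinar sums did not overlap. The summed CPM of 6 fibroblast markers was 314 to 906 in control, 681 to 964 in sunitinib-treated and 406 to 502 in R+S-treated tumors. Between R+S and sunitinib all 6 had negative log2 fold changes with a median of -0.66. Between R+S and control 5 of the 6 were negative with a median of -0.58. The summed CPM of 6 myeloid markers was 336 to 487 in control, 177 to 494 in sunitinib-treated and 225 to 324 in R+S-treated tumors. Of these 6, 5 were negative between R+S and control with a median of -0.59. Between R+S and sunitinib 3 were negative and 3 positive, with a median of 0.07. The part of these markers in the values of the list was not tested.

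**Figure D3:**
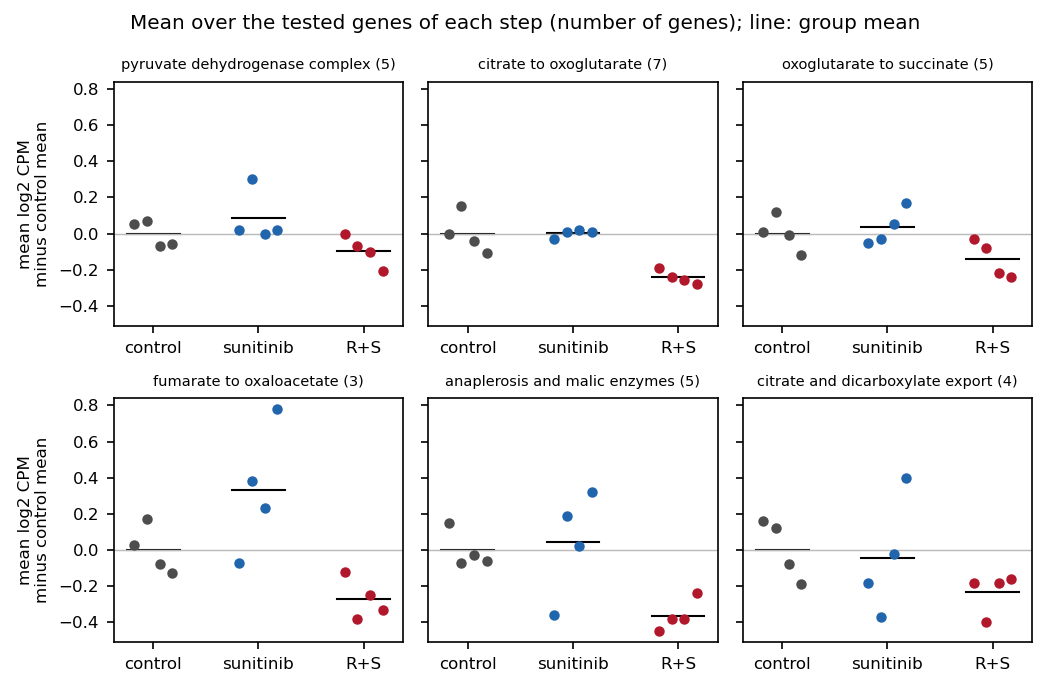
Mean over the tested genes of each step of the pathway of log2 CPM minus the control mean, in each tumor (dots), with the group mean as a line; the number of genes is given in each panel. The 7 genes from citrate to oxoglutarate lie between -0.28 and -0.19 in R+S-treated tumors and between -0.03 and 0.02 with sunitinib, and the 3 genes from fumarate to oxaloacetate reach 0.78 in sunitinib-treated tumor 12.

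The pyruvate dehydrogenase complex converts pyruvate into acetyl-CoA. Pdhb, the beta subunit of its first enzyme, had 118, 116, 109 and 99.4 CPM in control, 104, 123, 112 and 141 in sunitinib-treated and 98.5, 83.4, 85.8 and 85.8 in R+S-treated tumors. Every R+S-treated tumor was below every other tumor, by the narrowest margin for R+S-treated tumor 4. Pdhb was lower with R+S than with sunitinib by a log2 fold change of -0.44 ± 0.11 (SE, adjusted p = 0.0417), and against control the value was -0.32 ± 0.11 (adjusted p = 0.14). Pdhx had 18, 18.2, 18.2 and 15.5 CPM in R+S-treated tumors, 18.7 to 22.6 in control and 19.3 to 27.8 in sunitinib-treated tumors, again without overlap, but its log2 fold changes of -0.21 ± 0.14 and -0.33 ± 0.14 had adjusted p of 0.451 and 0.149.

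Pdha1, the alpha subunit of the same enzyme as Pdhb and the site at which kinases switch the complex off, showed another pattern. Its CPM was 78.6, 83.5, 72.8 and 72.4 in control, 94.3, 123, 92.3 and 99.9 in sunitinib-treated and 87.6, 92.5, 84.6 and 82.5 in R+S-treated tumors. All sunitinib-treated tumors were above all controls, with a log2 fold change of 0.41 ± 0.11 that just missed the threshold (adjusted p = 0.0554, 95% interval 0.18 to 0.65). The R+S-treated tumors lay between, overlapping both groups. Dlat and Dld, the acetyl-transferring and the shared dehydrogenase subunits, overlapped in all comparisons, with log2 fold changes between -0.18 and 0.24.

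Of the 7 genes from citrate to oxoglutarate, all had negative log2 fold changes in R+S-treated tumors against both other groups. Idh3b, a subunit of the NAD-dependent isocitrate dehydrogenase, had 118, 118, 113 and 111 CPM in control, 116, 164, 123 and 161 in sunitinib-treated and 113, 104, 103 and 94.7 in R+S-treated tumors. The R+S and sunitinib ranges were separate, whereas R+S-treated tumor 4 fell within the control range. Idh3b was lower with R+S than with sunitinib by -0.45 ± 0.12 (adjusted p = 0.0496), a value at the threshold.

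The other subunits of this enzyme were not called by edgeR in any comparison. Idh3g had 107, 90.6, 105 and 114 CPM in R+S-treated tumors, all under the control values of 132, 130, 148 and 125, with a log2 fold change of -0.36 ± 0.13 (adjusted p = 0.15). The sunitinib-treated tumors, at 122, 114, 129 and 170 CPM, touched the R+S range. Between R+S and sunitinib the log2 fold change of Idh3g was -0.36 ± 0.13 (adjusted p = 0.0978), and that of Idh3a was -0.07 ± 0.17 (adjusted p = 0.792). The catalytic subunit Idh3a had log2 fold changes of -0.40 ± 0.17 with sunitinib and -0.47 ± 0.17 with R+S against control, with overlapping ranges and adjusted p of 0.228 and 0.153.

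Cs is citrate synthase, which joins acetyl-CoA to oxaloacetate. It had 188, 194, 202 and 193 CPM in control, 197, 171, 201 and 214 in sunitinib-treated and 164, 150, 168 and 156 in R+S-treated tumors, so that each R+S-treated tumor was below all others. The log2 fold changes were -0.29 ± 0.09 against control (adjusted p = 0.116) and -0.30 ± 0.09 against sunitinib (adjusted p = 0.07), and without sunitinib-treated tumor 6 the latter became -0.36 with an adjusted p of 0.0338. Aco1, Idh1 and Idh2, the cytosolic aconitase and the NADP-dependent isocitrate dehydrogenases of cytosol and mitochondria, overlapped between all groups, with log2 fold changes from -0.30 to 0.22.

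The steps from oxoglutarate to succinate held no gene called by edgeR. Ogdh, the first enzyme of the oxoglutarate dehydrogenase complex, had both treated groups below all controls. Its CPM was 272, 294, 294 and 271 in control, 219, 191, 259 and 239 in sunitinib-treated and 233, 224, 231 and 232 in R+S-treated tumors. The log2 fold changes were -0.32 ± 0.11 (adjusted p = 0.129) and -0.30 ± 0.11 (adjusted p = 0.141), and between the treated groups the difference was 0.02, with a 95% interval of -0.21 to 0.25. DESeq2 called Ogdh lower than control with sunitinib (adjusted p = 0.04) and with R+S (adjusted p = 0.0435). Dlst, the succinyl-transferring subunit of the same complex, had 120, 120, 118 and 114 CPM with R+S, below the control values of 132 to 137, at a log2 fold change of -0.20 ± 0.08 (adjusted p = 0.181 by edgeR and 0.00311 by DESeq2). Of the succinyl-CoA ligase subunits, Suclg1 reached -0.47 ± 0.16 between R+S and sunitinib with overlapping ranges (adjusted p = 0.0799), and Sucla2 and Suclg2 overlapped in all comparisons.

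The 3 genes from fumarate to oxaloacetate had a median log2 fold change of 0.35 with sunitinib and -0.32 with R+S against control, and of -0.59 between R+S and sunitinib. Mdh1 had 261, 307, 261 and 252 CPM in control, 248, 392, 315 and 419 in sunitinib-treated and 227, 166, 199 and 218 in R+S-treated tumors. Every R+S-treated tumor was below every other tumor, and the sunitinib-treated tumors spread around and above the control range. Mdh1 was lower with R+S than with sunitinib by -0.76 ± 0.17, a ratio of 0.59 (adjusted p = 0.0301), and the difference from control was -0.42 ± 0.17 (adjusted p = 0.192).

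Fh1, fumarase, had 65.1, 82.7, 76.7 and 116 CPM with sunitinib and 61.8, 64.9, 60.6 and 49 with R+S, ranges that were separated by less than 1 CPM. The log2 fold change was -0.53 ± 0.16 (adjusted p = 0.0669). Mdh2 had 217, 273, 269 and 422 CPM with sunitinib and 224, 171, 198 and 191 with R+S, with overlap and a log2 fold change of -0.59 ± 0.19 (adjusted p = 0.0747). For all 3 genes the highest value of the 12 tumors was that of sunitinib-treated tumor 12, and without that tumor the Mdh1 difference was -0.65 (adjusted p = 0.0533).

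**Figure D4:**
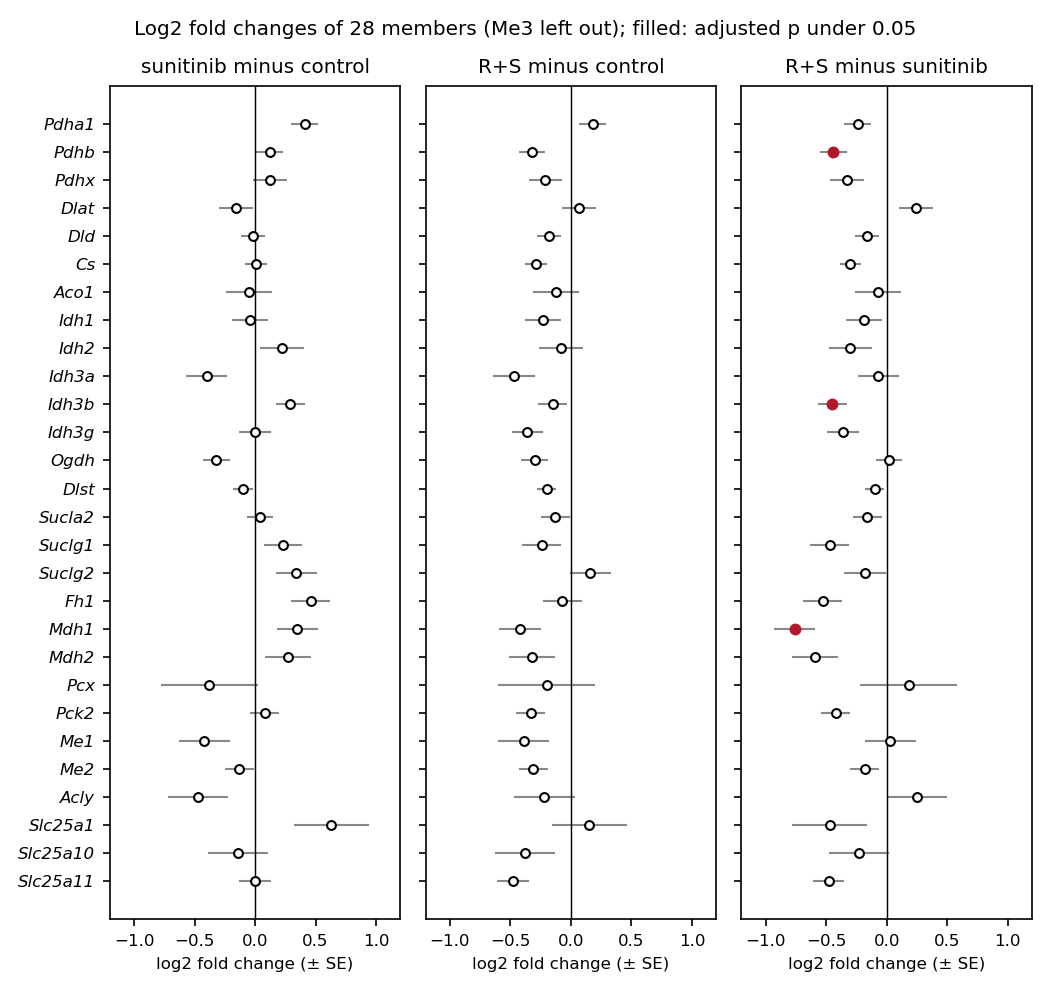
Log2 fold changes with their SE for 28 of the tested genes in the 3 comparisons, in the order of the pathway; filled red points passed an adjusted p of 0.05 (edgeR) and Me3 is left out for its scale. The filled points are Pdhb, Idh3b and Mdh1 in the comparison of R+S with sunitinib, and most points of the middle and right panels lie left of 0.

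The calls for Pdhb, Idh3b and Mdh1 depended on the tumors and the fit. Of 17 alternative fits, the call remained in 7 for Pdhb, in 5 for Idh3b and in 10 for Mdh1, with log2 fold changes from -0.51 to -0.35, from -0.54 to -0.36 and from -0.90 to -0.65. No member was called with only the 8 tumors of the comparison in the fit, which called 0 higher and 3 lower of 16167 genes. The acinar covariate also left no member called, with 117 higher and 190 lower of 16645 genes. The main fit had called 438 higher and 762 lower of 16645, so calls were lost over all genes and not only in the list. On leaving out sunitinib-treated tumor 12 or any single R+S-treated tumor no member was called either, and the counts over all genes are not given here. DESeq2 called 10 members, or 34.5%, beside 18.3% of all genes. Exons of Idh3b and Mdh1 overlap those of Nop56 and Wdpcp on the opposite strand, and the strand setting of the counting is not given in the sources used here, so that reads of each pair could only be told apart if strand was used. The same holds for Pdha1, Slc25a11, Slc25a10, Me1 and Me3, whose exons also overlap another gene on the opposite strand. Of the 50-base words in Pdhb transcripts, 10.9% also occur in another gene, mostly the pseudogene Gm6123, and reads with several alignments were not counted.

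Among the genes for anaplerosis and malic enzymes, Pck2, the mitochondrial phosphoenolpyruvate carboxykinase, was lower in every R+S-treated tumor than in any other. It had 115, 129, 94.8 and 90.8 CPM in control, 106, 112, 112 and 125 in sunitinib-treated and 84.5, 89.5, 84.9 and 82.3 in R+S-treated tumors. The log2 fold change was -0.42 ± 0.12 against sunitinib (adjusted p = 0.0555) and -0.33 ± 0.12 against control (adjusted p = 0.142). Me2, the mitochondrial NAD-dependent malic enzyme, was at 36.4, 38.3, 38.9 and 41.5 CPM with R+S, below the control values of 43.6 to 53.5, and Me1, its cytosolic NADP-dependent relative, at 43.7, 42.9, 44.1 and 33.7, below 47.8 to 66.6. Their log2 fold changes of -0.31 ± 0.12 and -0.39 ± 0.21 had adjusted p of 0.175 and 0.334, and 22.9% of the 50-base words of Me1 occur in another gene as well.

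For Pcx, pyruvate carboxylase, a single tumor stood apart. It had 267, 225, 244 and 226 CPM in control, 224, 38.5, 240 and 237 in sunitinib-treated and 195, 200, 226 and 217 in R+S-treated tumors. Apart from sunitinib-treated tumor 6 the groups lay close together, and the log2 fold change of sunitinib against control was -0.38 ± 0.40 with tumor 6 and -0.04 without it. Me3 was highest in the same tumor, at 28.1 CPM (1017 reads) in tumor 6 and between 0.332 and 3.69 CPM in the other 11 tumors. Its log2 fold change of 3.15 ± 1.10 between sunitinib and control (adjusted p = 0.145) became 0.78 without tumor 6 (adjusted p = 0.552), and the -3.83 ± 1.14 between R+S and sunitinib (adjusted p = 0.0607) became -1.46 (adjusted p = 0.166). Tumor 6 is also the tumor with the low beta-cell and the high hepatocyte markers given above, and the part of these in its Pcx and Me3 values was not tested.

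The citrate and dicarboxylate export genes held no gene called by edgeR in any comparison. Acly had 4077, 4468, 3873 and 4012 CPM in control, 3589, 1548, 3534 and 3227 in sunitinib-treated and 3669, 2647, 3718 and 4068 in R+S-treated tumors. All sunitinib-treated tumors were below all controls, with a log2 fold change of -0.47 ± 0.25 (adjusted p = 0.328) that was -0.25 without tumor 6 (adjusted p = 0.399). Slc25a11, the oxoglutarate-malate carrier of the malate-aspartate shuttle, had 120, 129, 123 and 111 CPM in control, 97.2, 115, 117 and 153 in sunitinib-treated and 96.3, 76.2, 87.5 and 85.3 in R+S-treated tumors. Each R+S-treated tumor was below all others, with log2 fold changes of -0.48 ± 0.13 against both groups that missed the threshold (adjusted p = 0.0656 against control and 0.051 against sunitinib), whereas DESeq2 called both (adjusted p = 0.0149 and 0.0106). The citrate carrier Slc25a1, at 20.1 to 47.3 CPM in control and 31.2 to 68.8 with sunitinib, and the dicarboxylate carrier Slc25a10 overlapped in all comparisons.

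**Figure D5:**
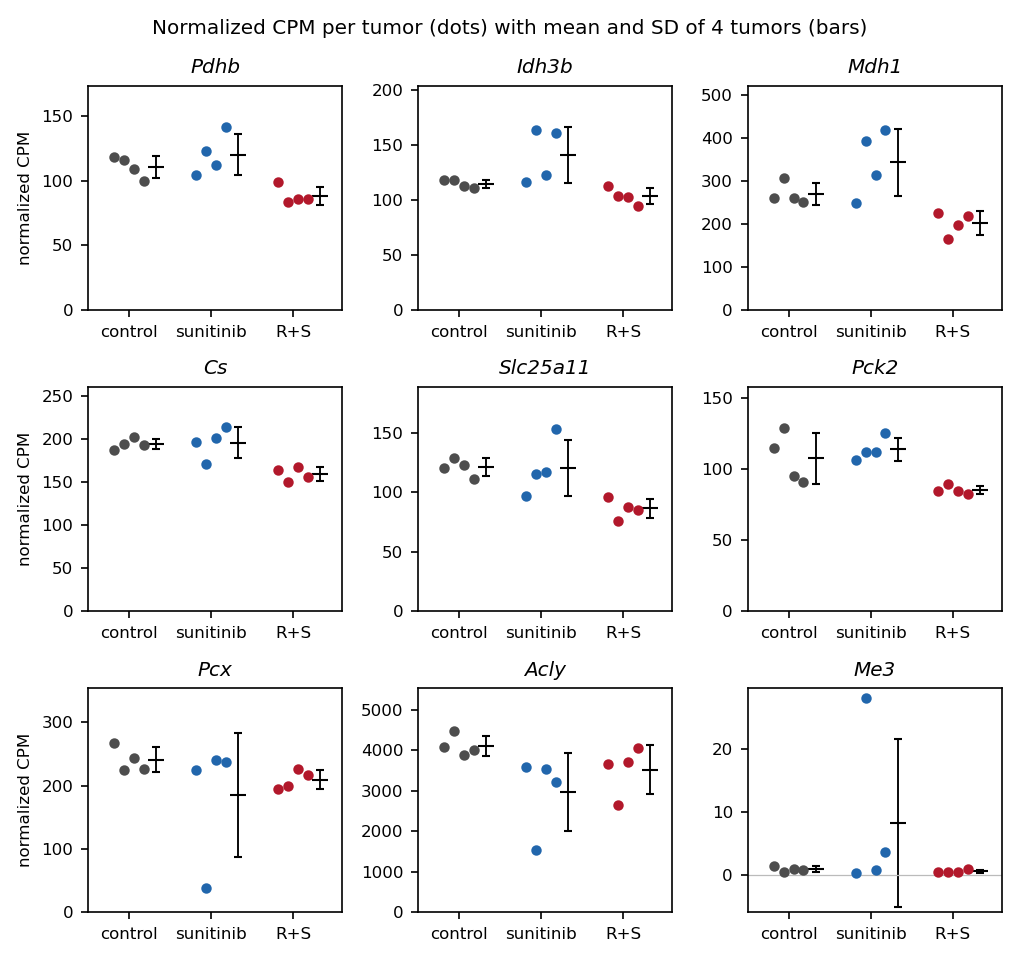
Normalized CPM of 9 genes in each tumor (dots, in the order of the tumor numbers) with the mean and SD of the 4 tumors of each group (bars); axes start at 0 except for Me3, whose SD reaches below 0. For Pdhb, Mdh1, Cs, Slc25a11 and Pck2 the R+S dots lie below all others, and for Pcx, Acly and Me3 the dot far from its group is sunitinib-treated tumor 6.

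Within a tumor, the ratio of the levels of related enzymes does not depend on the scaling between libraries. The log2 ratio of Pcx to Pdha1, which stand for the carboxylation and the oxidation of pyruvate, was 1.41, 1.08, 1.39 and 1.30 in control, 0.90, -2.02, 1.03 and 0.90 in sunitinib-treated and 0.80, 0.77, 1.07 and 1.05 in R+S-treated tumors. All 8 treated tumors were below all 4 controls, by 0.01 at the closest. The ratios of Mdh1 to Mdh2, Idh1 to Idh2, Sucla2 to Suclg2 and Me1 to Me2 overlapped between all groups. That of Idh3a to Idh3g was -2.01 in sunitinib-treated tumor 12 and between -1.11 and -0.51 in the other 11 tumors. That of Me3 to Me2 was -1.45 in sunitinib-treated tumor 6 and between -7.92 and -4.63 in the others. These ratios are descriptions without a test.

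Of 36 other genes of the pathway, 34 were tested. Pdk1, a kinase that inactivates the pyruvate dehydrogenase complex and a known target of hypoxia-inducible factor, had 50, 36.1, 34.2 and 36.2 CPM in control, 141, 118, 63.7 and 127 in sunitinib-treated and 86.9, 94.1, 101 and 56 in R+S-treated tumors. Both treated groups were above all controls. Pdk1 rose by 1.52 ± 0.25 on the log2 scale with sunitinib (adjusted p = 0.0042) and by 1.11 ± 0.25 with R+S (adjusted p = 0.0319). The call remained in 16 of 17 alternative fits with sunitinib and in 10 of 17 with R+S. In both comparisons the fit with the acinar covariate called 0 genes higher and 0 lower of all 16645. Pdk1 was thus not called there either, at log2 fold changes of 1.41 and 1.02. Got2, the mitochondrial aspartate aminotransferase of the malate-aspartate shuttle, was lower with R+S than with sunitinib by -0.54 ± 0.14 (adjusted p = 0.0455), which remained in 6 of 17 alternatives. No other of the 34 was called, so that 1 was higher and 0 lower in each comparison with control, and 0 higher and 1 lower between the treated groups. Each count of 1 is 2.94% of the 34, beside 1.93%, 1.55% and 4.58% of all genes called in that direction in the 3 comparisons.

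Among these genes were the succinate dehydrogenase subunits, which link the cycle to the respiratory chain. Sdhb and Sdhc had log2 fold changes of -0.58 ± 0.19 and -0.34 ± 0.14 between R+S and control without overlap (adjusted p = 0.109 and 0.188), while Sdha, at 0.12 ± 0.11, and Sdhd overlapped. Over the 34 genes, 15 (44.1%, beside 49% of all genes) were negative between R+S and control, with a median of 0.03, and 23 (67.6%, beside 51.8%) between R+S and sunitinib, with a median of -0.14.

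Promoters were searched for ACGTG, the core of the hypoxia response element bound by hypoxia-inducible factors, which overlaps the E-box CACGTG, on both strands from 250 bases before to 50 bases after each RefSeq start site (GRCm38.p6). RefSeq entries matched 28 of the 30 genes with 36 start sites, and 8 genes (28.6%) held a match, beside 21.8% of the 27025 genes with entries. The match of Pdhb lies at the outer end of the stretch and is not printed. The windows below are those of genes whose groups did not overlap in a comparison or that stood apart in tumor 6, with the window upstream of the gene for Ogdh, which has others in its exons. They are printed 5′ to 3′ on the strand of the gene with the match in capitals (CACGT where ACGTG is on the other strand).
Mdh1: cggtggagcgACGTGtgctgtcgct
Idh3g: ggcggcactgACGTGtccgcttccc
Ogdh: tctgtgacgtCACGTcacgcccaca
Pcx: ggcggagtcgACGTGaggcgccaag
Acly: cggccccgccCACGTccgggactac
Me1: caggctagggCACGTctgtggggta
They lie at chr11:21572119-21572143 (minus strand) for Mdh1, at chrX:73787081-73787105 (minus) for Idh3g, at chr11:6291542-6291566 (plus) for Ogdh, at chr19:4510322-4510346 (plus) for Pcx, at chr11:100528057-100528081 (minus) for Acly and at chr9:86687361-86687385 (minus) for Me1. The Mdh1 window precedes an alternative start site and lies in an annotated exon of the gene, the Me1 window lies in an intron of the gene, and the other windows lie upstream of the annotated gene. The matches start at positions -199, -198, -45, -140, -71 and -98 from the start site. They are descriptions of the letters in these windows, and no binding was measured here.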

How the data were processed

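Poly(A) RNA of the 12 tumors had been made into strand-specific libraries (Illumina TruSeq Stranded mRNA). The submitters' processing notes name cutadapt 1.2.1, TopHat2 2.0.9, HTSeq 0.5.4p3 and the build GRCm38; the annotation release is not given in the sources used here. The authors deposited 1 table per tumor with raw counts of reads per gene, without normalization, whose 5 closing summary lines were left out. Groups and replicate numbers came from the sample labels. Symbols (37607 of 38924 identifiers), coordinates and merged exons of all transcripts came from GENCODE M21.

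Genes were kept by filterByExpr (minimum count 10, minimum total 15), which left 16645. Testing used edgeR 4.0.16 (quasi-likelihood F-test, robust, TMM) under R 4.3.3 with limma 3.58.1, all 12 tumors in 1 fit without covariates. P-values were adjusted by Benjamini-Hochberg over all tested genes within each comparison, at a threshold of 0.05. Each SE was taken as the size of the log2 fold change over the root of its F statistic, and the prior count for log2 CPM was 2. No 2 tumors of a group differed by as little as counting noise, and PCR copies were not marked. The p-values set group differences against the spread between these tumors, whose independence the labels do not settle.

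Full statistics are given for genes of the list that passed the threshold or whose groups did not overlap. Other genes of the pathway are named where they passed, and the succinate dehydrogenase subunits and Pdk4 were picked after their values were seen. The values of 1 other gene are not reported here. The 30 genes, the other lists and the tests were chosen with earlier results of these data known. The alternatives were DESeq2 1.42.0, library totals, upper-quartile and DESeq2 scaling, no filter, at least 10 counts in every tumor, a fit of the 8 tumors compared alone, mean log2 CPM of acinar genes as a covariate, summing tumors of 1 prefix in the treated groups (2 sunitinib and 3 R+S sums beside the 4 controls, which were kept apart), an absolute log2 fold change of at least 1, and leaving out each tumor. Counts of ranges and signs without sunitinib-treated tumor 6, and the alternatives for Pdk1, Got2 and Pdk4, were added after seeing the data. Counts were also simulated for sunitinib versus control, with 200 of 16514 genes changed, all drawn from the more highly expressed genes. The fit found 93 of the 100 genes shifted by 2 and 57 of the 100 shifted by 1 (log2). It called 7 genes that had not been shifted. Shifts smaller than 1, as most fold changes of the list were, were not simulated, so their recovery is not known.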

Additional observations from a re-analysis of the deposited data

Results flagged for a closer look

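Of 87 groups of 4 tumors (29 genes in 3 groups), 6 held a tumor whose gap to the nearest other tumor, on the log2 scale, exceeded Dixon's 95% critical value as a share of the range, where chance alone gives about 4.3. Sunitinib-treated tumor 6 was far below its group for Pcx, at 38.5 CPM with the others at 224 to 240, and for Acly, at 1548 with the others at 3227 to 3589. R+S-treated tumor 10 was apart for Pdhx at 15.5 CPM (others 18 to 18.2), for Me1 at 33.7 (others 42.9 to 44.1) and for Me3 at 0.965 (others 0.416 to 0.48). R+S-treated tumor 4 was apart for Pdhb at 98.5 CPM (others 83.4 to 85.8), a gene called lower with R+S than with sunitinib, and without that tumor its log2 fold change was -0.49 (adjusted p = 0.0772).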

How the results depend on the processing

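Between sunitinib and control the number of genes of the list called was 0. It became 3 with DESeq2 and 1 with DESeq2 size factors in edgeR. With treated tumors of 1 prefix summed and the controls kept apart it was 1, and 0 to 1 on leaving out each tumor. Over all genes DESeq2 called 8.87%, and the main fit called 321 higher and 424 lower of 16645. DESeq2 size factors gave 325 higher and 422 lower of 16645, and the sums of tumors 355 and 397 of 17127. Between R+S and control the number for the list was 0 and stayed at 0 on leaving out each tumor. It became 4 with DESeq2, 1 with library totals and 8 with a fit of the 8 tumors compared alone. Over all genes DESeq2 called 10.1%, and the main fit called 258 higher and 435 lower of 16645. Library totals gave 206 higher and 546 lower of 16645, and the 8 tumors alone 1083 and 1474 of 16184. Between R+S and sunitinib the number for the list was 3 (over all genes 438 higher and 762 lower of 16645). It became 10 with DESeq2, which called 18.3% of all genes. Without a filter on low counts it was 1 (over all genes 209 and 292 of 26179). With at least 10 counts in every tumor it was 5 (450 and 855 of 14330). It was 0 with a fit of the 8 tumors compared alone (0 and 3 of 16167). The acinar covariate also gave 0 (117 and 190 of 16645), as did an absolute log2 fold change of at least 1. On leaving out each tumor the number for the list ranged from 0 to 9. It was 9 without sunitinib-treated tumor 5, 4 without tumor 6, 1 without tumor 8 and 0 without tumor 12 or any R+S-treated tumor. The counts over all genes are not given here for fits that left out a tumor. The cause of the changes was not tested under any of these settings. The median log2 fold change of the list moved from 0.01 to 0.13 between sunitinib and control with the same sums, and from -0.23 to -0.06 between R+S and control with the acinar covariate. No called direction reversed under any alternative run. No paired analysis was possible because the groups share at most 1 replicate number. Limits are the 4 tumors per group, the unexplained label prefixes, acinar RNA that separates both treated groups from control, and sunitinib-treated tumor 6. Others are the low counts of Me3 and Pck1 and the share of reads assigned to no gene, which differed between tumors.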

Other observations

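Transcripts of the mitochondrial genome, which encode subunits of the respiratory chain that takes up the electrons of the TCA cycle, did not follow the order of the nuclear TCA cycle genes. Their summed CPM was 34939, 30319, 30062 and 27858 in control, 21886, 22259, 23537 and 20884 in sunitinib-treated and 26973, 34080, 23025 and 26668 in R+S-treated tumors. The sunitinib-treated tumors were below all controls and the R+S-treated tumors overlapped both groups. Poly(A) selection captures these transcripts unevenly, and the sums were not tested.

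Among other routes into the cycle were 7 genes for glutamate and aspartate entry. Their median log2 fold change was 0.32 between sunitinib and control, -0.19 between R+S and control and -0.49 between R+S and sunitinib. In the last of these 1 of the 7, Got2, was called (background 4.58% lower). At an unadjusted p of 0.05, 4 were higher and 1 lower in the first comparison (background 11.3% and 8.2%). In the second 1 was lower (background 10.9%), and in the last 4 were lower (background 17.6%). The 4 genes for propionate entry had medians of 0.03, 0.08 and 0.11 in the same order, with 0 called by edgeR. At an unadjusted p of 0.05, 1 was lower in the first (background 8.2%). In the last 1 was higher, where 2132 of all 16645 genes were. Pdk4, another pyruvate dehydrogenase kinase that was chosen after its values were seen, had 0.513, 0.212, 0.482 and 0.282 CPM in control, 2.02, 15.1, 1.13 and 0.545 in sunitinib-treated and 1.78, 0.556, 0.897 and 1.34 in R+S-treated tumors. Its log2 fold change of 3.64 ± 0.95 with sunitinib (adjusted p = 0.0524) was 1.72 without sunitinib-treated tumor 6 (adjusted p = 0.0881), and with R+S the value was 1.60 ± 0.90 (adjusted p = 0.342).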
